A study of Homo sapiens with 4 samples.

Results

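SNARE proteins are the membrane fusion machinery of the secretory and endosomal pathways. A SNARE on a vesicle (an R-SNARE, in most cases a VAMP) zips into a bundle with Q-SNAREs on the target membrane (a Qa syntaxin with Qb and Qc partners, or with a SNAP-25-type protein that supplies both), and the closing bundle draws the membranes together. Syntaxin-binding proteins chaperone or restrain this step. The ATPase NSF, bound through the α-, β- and γ-SNAP adaptors encoded by *NAPA*, *NAPB* and *NAPG*, then takes the spent bundle apart so that its subunits can be used again. Hepatic stellate cells depend on this traffic to secrete collagen and other matrix proteins.

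The family was examined in LX-2, an immortalized human hepatic stellate cell line, after transfection of a miR-6133-5p mimic or of miControl, a commercial negative control mimic. Both were used at 20 nM. Cells of both groups received 5 ng/mL recombinant human TGF-β1 a day after transfection, so miControl is a TGF-β1-stimulated control and no unstimulated cells were included. RNA taken 24 h after TGF-β1 gave 2 RNAseq libraries per group, called replicates 1 and 2. The labels do not say that replicates came from separate cultures, and p-values therefore measure only the spread between these libraries.

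Members were chosen by gene symbol: protein-coding genes named as syntaxins, VAMPs, syntaxin-binding proteins, the VTI1, GOSR and BET1 SNAREs, SNAP-25-type proteins, YKT6, SEC22B, USE1 and BNIP1, with NSF and its 3 adaptors. The family was selected on the low level of *STX2* in this same contrast, so *STX2* is given below as a description without a test. The other members entered by symbol whatever their values, but the contrast was already known when the list was drawn up. Of 63677 genes in the count table, 45 members are described, and 41 of these were among the 18252 genes with enough counts to be tested.

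Library totals ran from 51862006 to 93811213 counts. Levels are given as CPM, counts scaled to library size with TMM factors, and a single count was worth 0.0101 to 0.0203 CPM. The label "hepatic stellate cell" was checked against markers: 6 of 10 stellate markers reached 1 CPM, including *COL1A1*, *VIM* and *PDGFRB*, whereas *DES*, *LRAT*, *GFAP* and *HAND2* did not. *PECAM1*, also planned as an endothelial marker, was not matched to a row of counts and is left out. Of the markers of hepatocytes and endothelial cells, 0 of 4 and 0 of 3 reached 1 CPM, with *TTR* and *LYVE1* at 0 in all 4 libraries. Of the cholangiocyte markers 1 of 3 did so, *KRT7*, with 3.62 and 4.44 CPM in miControl and 6.61 and 7.08 CPM in miR-6133-5p libraries (log2 fold change 0.76, SE 0.16, edgeR adjusted p = 0.00317). Of the macrophage and leukocyte markers 1 of 4 did so, *CD14*, with 1.46 and 0.955 against 1.85 and 1.97 CPM (edgeR adjusted p = 0.087). Summed CPM of the stellate list was 4634 to 5110 in miControl and 2775 to 3101 in miR-6133-5p libraries. *COL1A1* made up most of that difference, at 3112 and 2723 CPM against 995 and 1133 CPM. *VIM* and *PDGFRB* had log2 fold changes of −0.02 (SE 0.12) and 0.04 (SE 0.12) and did not pass the test. The part of these markers in the results below was not tested. In bulk RNA, fewer cells of a type and less RNA per cell cannot be told apart.

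A gene was called when the edgeR quasi-likelihood test gave a Benjamini–Hochberg adjusted p-value below 0.01 and the log2 fold change went beyond 0.8 in either direction. Among the 41 tested members, 1 was called lower in miR-6133-5p libraries (2.44%, against 5.54% of all tested genes) and 2 were called higher (4.88%, against 2.9%). The member called lower was *STX2*, on which the family was selected, so its call is no test. Those called higher were *NSF* and *VAMP1*. By the adjusted p-value alone, 8 members were lower (19.5%, against 10.9% of all tested genes) and 5 were higher (12.2%, against 7.96%). The remaining 28 did not pass the test. These counts depended on single libraries and on the scaling. Without miControl replicate 1, 1 was lower (*STX2*) and 1 higher (*NSF*), and without miControl replicate 2, 2 were lower and 4 higher. Without miR-6133-5p replicate 2, 9 were lower and 8 higher, and with library totals in place of TMM 6 were lower and 11 higher. In 32 members (78.0%, against 64.4% of all tested genes) the libraries of the groups did not overlap. Without *STX2*, 40 tested members were left, with 0 called lower, 2 called higher, and 7 lower and 5 higher by the adjusted p-value alone. The median log2 fold change of the members was −0.03, beside 0.03 over all tested genes. Since this contrast gave the list its reason, nothing is read from these counts beyond the description.

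**Figure D1:**
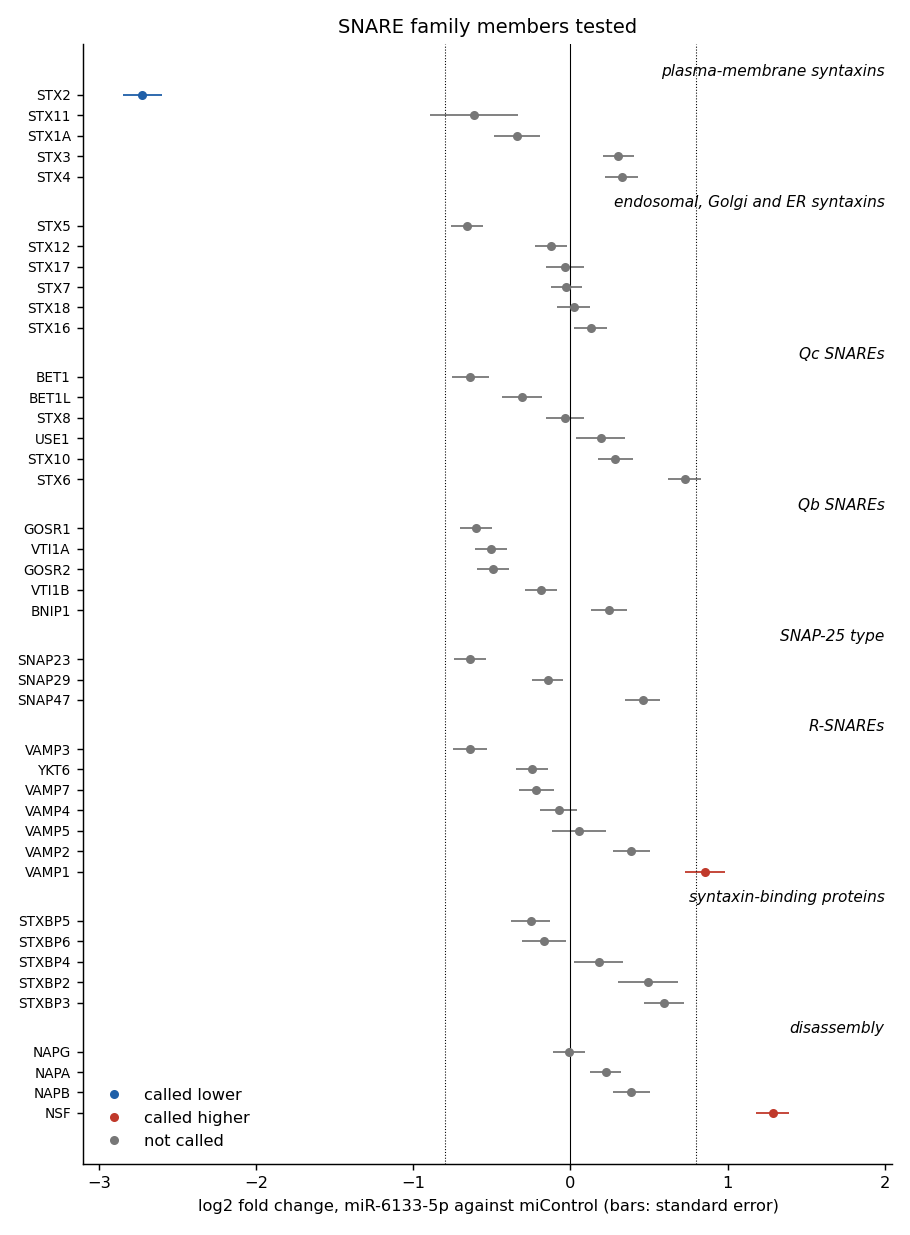
Log2 fold change of each of the 41 tested members, miR-6133-5p against miControl, grouped by role; points are edgeR estimates, bars are standard errors, and dotted lines mark the fold threshold of 0.8. *STX2* lies at −2.72, apart from the other 40 members, which run from −0.66 to 1.29.

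*STX2* (ENSG00000111450, GRCh37 chr12:131274145-131323799, minus strand) encodes syntaxin 2, also called epimorphin, a Qa-SNARE of the plasma membrane that has also been studied as an epithelial morphogen made by mesenchymal cells. Its level was 189 and 194 CPM in the miControl libraries and 31.8 and 26.1 CPM in the miR-6133-5p libraries, from 9278, 10555, 2079 and 2590 counts. Both miR-6133-5p libraries were therefore far below both miControl libraries, and replicates within each group lay close together. The log2 fold change was −2.72 (SE 0.12), a level 6.61-fold lower. Omitting single libraries gave −2.89 to −2.60, and the value was −2.56 with library totals in place of TMM. Other genes share 5.05% of the *STX2* exon bases on the opposite strand and 2.51% on the same strand.

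Levels of different genes can be set beside each other only per length, here as CPM per kilobase of annotated exon. In miControl, *STX2* had 41.1 ± 0.77 CPM per kilobase (SD, n = 2) and ranked 3 among the 45 members. Above it were *VAMP3* with 111.9 ± 2.01 and *VAMP7* with 53.1 ± 5.87, both R-SNAREs of endosomal and secretory vesicles. In miR-6133-5p libraries *STX2* had 6.22 ± 0.86 CPM per kilobase and ranked 20, while *VAMP3* and *VAMP7* still ranked 1 and 2 (71.8 ± 6.81 and 45.7 ± 2.89). The rank of *STX2* in miControl was also 3 when the length of the longest coding transcript was used, which gave 55.6 CPM per kilobase, and it was 25 in miR-6133-5p libraries on that scale. *STX2* thus ranked lower in miR-6133-5p libraries by both lengths.

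The 3′-UTRs of the members were searched for a match to the miRNA. The mature sequence was not used here. Instead, 7-base sequences were ranked over 13369 tested genes outside the family, by how far the mean log2 fold change of genes with the sequence in their 3′-UTR lay from that of genes without it. Of 16016 sequences, each held by at least 100 genes, the largest difference towards lower levels was that of CTCCCTC, held by 3035 genes with a mean log2 fold change of −0.20 against 0.06 in genes without it. The next sequence in that ranking, held by 122 genes, had a difference of −0.25, beside −0.26 for CTCCCTC. The reverse complement of CTCCCTC occurs once, at bases 72 to 78, in the 108-base hairpin of *MIR6133* (RefSeq, GRCh38.p14, chr7:133290881-133290988, plus strand). The 30 bases around that match and around both *STX2* sites are printed 5′ to 3′ to show the pairing letters, with the 7 matching bases in capitals. The *STX2* windows come from the GRCh37 genome, read on the minus strand, in the 2423-base 3′-UTR of the longest annotated 3′-UTR transcript (GENCODE). Site 1, at chr12:131275726-131275755, starts its 7-base match at UTR base 824. Site 2, at chr12:131274784-131274813, starts it at base 1766 and is followed by an A.
MIR6133 hairpin, bases 62 to 91: cuucauguguGAGGGAGgagguuggguauu
STX2 site 1: gcttcctttccCTCCCTCtcccagctagtt
STX2 site 2: caattccgaatCTCCCTCatccatgatgcg

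A match is a stretch of letters and not a measured binding site. At both *STX2* sites the run of bases complementary to the hairpin was 8 long. The 7-base match was in the longest 3′-UTR of 11 of the 41 tested members (26.8%), against 22.7% of the other tested genes. Members also had longer 3′-UTRs, with a median of 2114 bases against 1499 in other tested genes, and members with the match had a median of 2857 against 1896 in members without it. Only 4 members (9.76%, against 6.01% of other tested genes) had the match followed by an A, the 8-base form, namely *STX2*, *NSF*, *STXBP4* and *VTI1A*.

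Members with the match lay on both sides of 0. Outside the family, genes with the match had a median log2 fold change of −0.14 and 13.6% were called lower, against 0.08 and 4.51% for genes without it. Of the same genes, 2.64% with the match and 3.81% without it were called higher. The sequence was chosen on those genes, so their difference is a description. In the family, the 10 members with the match other than *STX2* had a median of 0.16, and *NSF* was the 1 called higher while 0 were called lower. The 30 members without the match had a median of −0.03, and *VAMP1* was the 1 called higher, beside 0 called lower. The window of *NSF*, the member with a match that was called higher, is printed for comparison with *STX2*, with the same 7 bases in capitals, and so is that of *VTI1A*. The *NSF* window is at GRCh37 chr17:44834168-44834197 on the plus strand, with the match at base 990 of a 1856-base 3′-UTR and an A after it. The *VTI1A* window, at chr10:114575243-114575272 on the plus strand and base 112 of a 3361-base 3′-UTR, had the longest run complementary to the hairpin among the members, 9 bases. Runs were counted along the whole hairpin without the bounds of the mature miRNA, so a longer run need not mean a longer match to it.
NSF site: tttctagccctCTCCCTCagtcctttattg
VTI1A site 1: tgaccctctctCTCCCTCaccgccgttggg

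**Figure D2:**
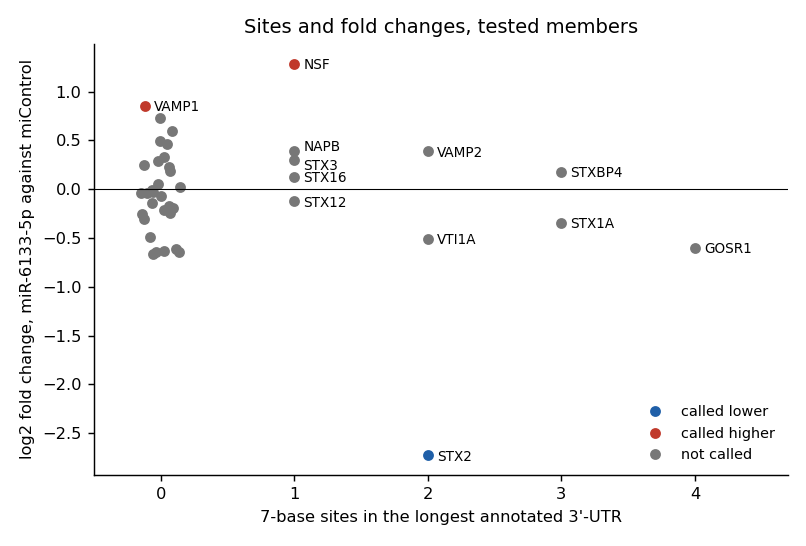
Log2 fold change of each tested member against the number of 7-base matches in its longest annotated 3′-UTR, with members at 0 spread sideways for legibility and members with a match or a call named. *STX2*, with 2 matches, lies at −2.72, while *GOSR1* with 4 matches lies at −0.60 and *NSF* with 1 match lies at 1.29. The *GOSR1* matches start at bases 432, 438, 455 and 472 of its 3′-UTR, and those at 432 and 438 overlap.

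Plasma-membrane syntaxins are the Qa-SNAREs with which secretory vesicles fuse at the cell surface. Of the 6 described here 5 had enough counts to be tested. *STX2*, on which the family was selected, met the thresholds for a lower call, which is no test, and 0 were called higher. In all 5 the groups did not overlap, as in 64.4% of all tested genes. *STX3* and *STX4*, the syntaxins of apical and basolateral or general surface delivery, were both detected in every library. *STX3* had 74.9 and 76.9 CPM in miControl and 96.2 and 91.4 CPM in miR-6133-5p libraries (log2 fold change 0.30, SE 0.10, edgeR adjusted p = 0.0351). *STX4* had 40.9 and 39.2 CPM against 52.4 and 48.0 CPM (0.33, SE 0.10, edgeR adjusted p = 0.0302). Neither passed the threshold, although both miR-6133-5p libraries were above both miControl libraries in each gene. *STX1A*, best known from neuronal exocytosis, had 17.6 and 12.9 CPM in miControl and 12.2 and 11.9 CPM in miR-6133-5p libraries (−0.34, SE 0.15), and *STX11*, best known from cytotoxic lymphocytes, stayed below 2 CPM in all 4 libraries (−0.61, SE 0.28). *STX19* had 1 to 22 counts per library and was not tested.

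Per kilobase, *STX2* was the most abundant of these syntaxins in miControl and not in miR-6133-5p libraries. It made up 61.5% and 63.4% of their summed CPM per kilobase in the miControl libraries, and 18.7% and 16.8% in the miR-6133-5p libraries. *STX3* made up 15.6% and 16.0%, then 36.1% and 37.5%, and *STX4* 15.3% and 14.7%, then 35.5% and 35.5%. These are shares of a sum that includes *STX2*, so a lower *STX2* level by itself raises the shares of the other genes. The sum of the 5 genes was 65.9 and 65.6 CPM per kilobase in miControl and 36.4 and 33.3 in miR-6133-5p libraries. Without *STX2* the sum was 25.3 and 24.0 against 29.6 and 27.7, so the other 4 summed were higher in both miR-6133-5p libraries. With coding-transcript lengths the share of *STX2* was 53.3% and 55.5%, then 14.0% and 12.6%. On that scale *STX4* had a larger share than *STX3*, 26.5% and 25.8%, then 53.1% and 53.1%, against 11.8% and 12.3%, then 23.7% and 24.6%.

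**Figure D3:**
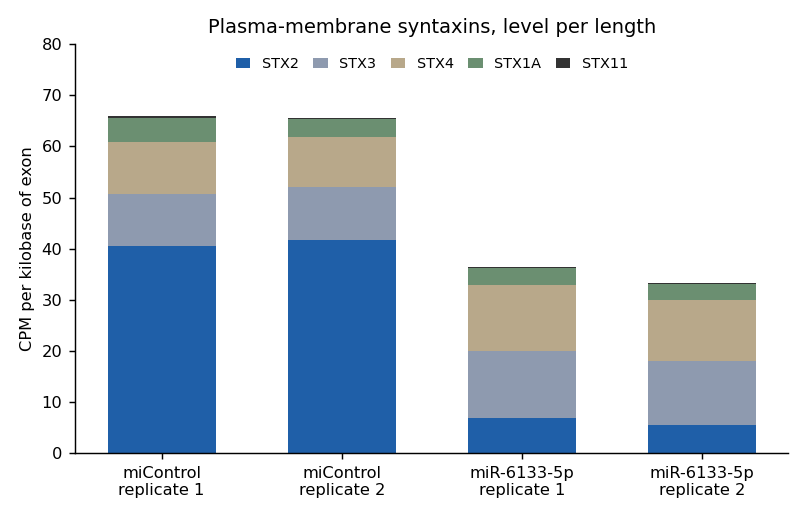
Level per kilobase of exon of 5 tested plasma-membrane syntaxins in each of the 4 libraries, stacked by gene. The *STX2* part takes 61.5% and 63.4% of the miControl columns and 18.7% and 16.8% of the miR-6133-5p columns, and the columns shrink from 65.9 and 65.6 to 36.4 and 33.3 CPM per kilobase.

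The 6 syntaxins of endosomes, the Golgi apparatus and the ER had a median log2 fold change of −0.03, and 1 of them passed the adjusted p-value. *STX5*, the Qa-SNARE of ER-to-Golgi and intra-Golgi fusion, had 53.9 and 51.2 CPM in miControl and 32.7 and 33.8 CPM in miR-6133-5p libraries. All miR-6133-5p values were below all miControl values, with a log2 fold change of −0.66 (SE 0.10, edgeR adjusted p = 0.000315), short of the fold threshold. The other members of this group were *STX7* (late endosome), *STX12* (recycling endosome), *STX16* (trans-Golgi), *STX17* (autophagosome) and *STX18* (ER). Their log2 fold changes lay between −0.12 and 0.13, with SEs of 0.10 to 0.12. The exons of *STX16* are shared on the same strand with a neighbouring readthrough gene over 28.5% of their bases, so its level is uncertain.

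Qb-SNAREs were the role group with the lowest median, −0.49 over 5 members, and 3 of the 5 passed the adjusted p-value, all lower (10.9% of all tested genes did so), with 0 called at the fold threshold. With library totals 1 of them passed, *GOSR1*, and without miControl replicate 1 or without miControl replicate 2, 0 passed. *GOSR1*, a Golgi SNARE, had 65.1 and 66.7 CPM in miControl and 44.1 and 42.9 CPM in miR-6133-5p libraries (log2 fold change −0.60, SE 0.10, edgeR adjusted p = 0.000533). *GOSR2*, a Qb-SNARE of ER-to-Golgi transport, had 59.2 and 59.7 CPM against 42.2 and 42.3 CPM (−0.49, SE 0.10, edgeR adjusted p = 0.00217). *VTI1A*, of the trans-Golgi and endosomes, had 50.7 and 50.4 CPM against 35.9 and 35.3 CPM (−0.51, SE 0.10, edgeR adjusted p = 0.00195). In each of the 3 genes the replicates of a group differed by far less than the groups did. *VTI1B*, the late endosomal paralog, had a log2 fold change of −0.19 (SE 0.10), and *BNIP1*, an ER SNARE, 0.25 (SE 0.11), and neither passed the test.

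Among the 6 Qc-SNAREs, 1 was lower and 1 was higher by the adjusted p-value, with 0 called. *BET1*, which completes the ER-to-Golgi bundle with *STX5* and *GOSR2*, had 33.3 and 34.7 CPM in miControl and 23.7 and 20.1 CPM in miR-6133-5p libraries (−0.64, SE 0.12, edgeR adjusted p = 0.00109). *STX6*, a trans-Golgi and endosome syntaxin, had 37 and 39.2 CPM against 65.8 and 60.3 CPM (0.73, SE 0.10, edgeR adjusted p = 0.000173). With library totals in place of TMM its log2 fold change was 0.89 and it was called higher. The ER-to-Golgi genes *STX5*, *GOSR2* and *BET1*, put together after their values were seen, were each lower and *STX6* higher. In each of them the groups did not overlap, as in 64.4% of all tested genes. The ER genes *STX18* (0.02) and *BNIP1* (0.25) did not pass the test. *BET1L*, *STX8*, *USE1* and *STX10* did not pass the test, with log2 fold changes of −0.31, −0.03, 0.19 and 0.28. Their SEs were 0.11 to 0.15.

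Of the SNAP-25-type proteins, which give both Qb and Qc helices, *SNAP23* and *SNAP47* passed the adjusted p-value in opposite directions. *SNAP23*, the widely expressed partner of surface syntaxins, had 45.8 and 48.2 CPM in miControl and 30.8 and 29.6 CPM in miR-6133-5p libraries (−0.64, SE 0.10, edgeR adjusted p = 0.000439). *SNAP47* had 19.3 and 17.8 CPM against 25.9 and 25.2 CPM (0.46, SE 0.11, edgeR adjusted p = 0.00723). Antisense neighbours share 27.6% of the *SNAP23* exon bases and 22.8% of the *SNAP47* exon bases, and the strand setting of the counting is not given in the sources used here, so reads of these neighbours may be included. *SNAP29*, which acts in autophagosome and endosome fusion, had a log2 fold change of −0.14 (SE 0.10). *SNAP25*, the neuronal form, had 0 to 6 counts per library and was not tested.

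R-SNAREs sit mainly on the vesicle. Of 9, 7 were tested, 1 was called higher and 1 was lower by the adjusted p-value alone. *VAMP3* (cellubrevin), the R-SNARE of recycling endosomes and constitutive secretion, had 302 and 310 CPM in miControl and 209 and 183 CPM in miR-6133-5p libraries. Both miR-6133-5p libraries were lower, with a log2 fold change of −0.64 (SE 0.11, edgeR adjusted p = 0.000574). *VAMP1*, a synaptobrevin, had 7.22 and 7.75 CPM against 13.5 and 13.6 CPM (0.86, SE 0.13, edgeR adjusted p = 0.000217), close to the fold threshold. Without miControl replicate 1 its log2 fold change was 0.80 with an adjusted p of 0.0158, and with glmTreat the adjusted p was 1.0, so the call of *VAMP1* was lost in both. Antisense exons cover 10.4% of its exon bases.

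*VAMP2*, the synaptobrevin paralog of *VAMP1*, had 21.7 and 20.6 CPM in miControl and 30.1 and 25.3 CPM in miR-6133-5p libraries (0.39, SE 0.12, edgeR adjusted p = 0.0256). *VAMP4*, *VAMP5*, *VAMP7* and *YKT6* had log2 fold changes of −0.07, 0.06, −0.22 and −0.25 with SEs of 0.10 to 0.17. None of these 5 passed the test, and antisense exons cover 30.3% of the exon bases of *YKT6*. *VAMP8*, an R-SNARE of late endosomes and regulated secretion, had 4 to 10 counts per library and was not tested. *SEC22B*, an ER-to-Golgi R-SNARE, is listed at 0 in all 4 libraries. Pseudogenes of *SEC22B* on the same strand share 9.86% of its exon bases, and the rest are not shared. Only 55665 of 63677 gene IDs matched a symbol, so counts of the gene under an unmatched ID would not be seen here. Why the count was 0 was not tested, and the 0 is not read as the level of *SEC22B*.

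**Figure D4:**
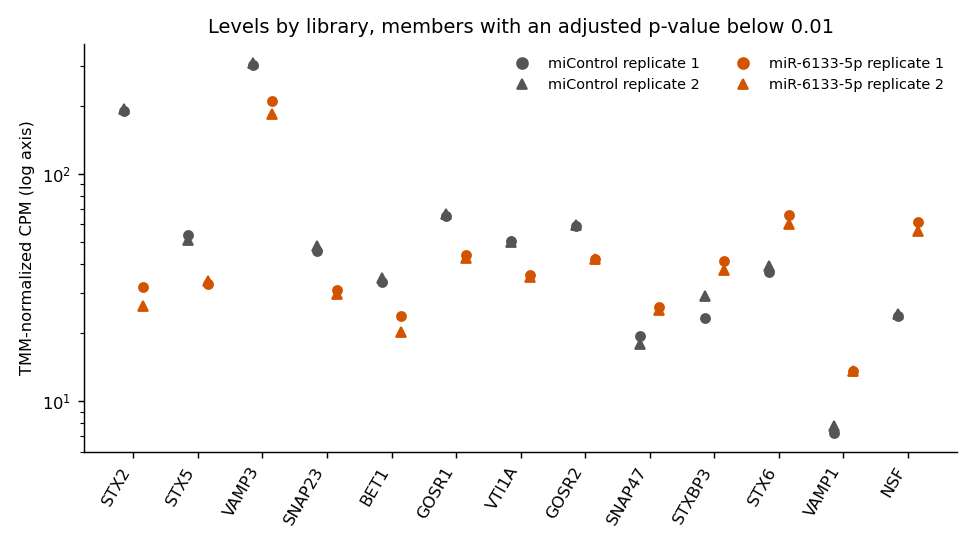
TMM-normalized CPM (log axis) in each of the 4 libraries for *STX2* and the 12 other members with an edgeR adjusted p-value below 0.01. The groups do not overlap in any of these 13 genes, which their choice by p-value makes likely. Over all tested genes 64.4% do not overlap. The gap is widest for *STX2* (189 and 194 against 31.8 and 26.1 CPM).

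Of the 4 genes of the disassembly machinery, *NSF* was called higher. *NSF*, the ATPase that unwinds spent bundles, had 23.8 and 24.2 CPM in miControl and 61.2 and 56.0 CPM in miR-6133-5p libraries. Both miR-6133-5p libraries were above both miControl libraries by more than the replicates differed, with a log2 fold change of 1.29 (SE 0.11, edgeR adjusted p = 1.53e-06), a level 2.44-fold higher. The log2 fold change was 1.21 to 1.34 when single libraries were omitted, and *NSF* was still called with glmTreat, the only member called higher there. Its rank per kilobase of exon among the members was 33 in miControl and 21 in miR-6133-5p libraries.

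The adaptors that bring NSF to the SNARE bundle did not pass the test. *NAPA*, *NAPB* and *NAPG* had log2 fold changes of 0.22 (SE 0.10), 0.39 (SE 0.12, edgeR adjusted p = 0.0229) and −0.01 (SE 0.10). The ratio of *NSF* to the 3 adaptors summed, in CPM per kilobase, was 0.0797 and 0.0817 in miControl and 0.184 and 0.178 in miR-6133-5p libraries. The ratio was thus higher in both miR-6133-5p libraries. Other genes share 13.2% of the *NAPA* exon bases on the same strand and 17.4% on the opposite strand, so the level of *NAPA* is uncertain.

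Of 5 syntaxin-binding proteins described here, which chaperone or restrain syntaxins, 1 passed the adjusted p-value and 0 were called. *STXBP3* (Munc18c), the Sec1/Munc18 partner of syntaxins 2 and 4, had 23.1 and 29.1 CPM in miControl and 41.5 and 37.6 CPM in miR-6133-5p libraries (0.60, SE 0.13, edgeR adjusted p = 0.0028). Both miControl libraries of *STXBP3* lay below both miR-6133-5p libraries. *STXBP2*, another Munc18 gene, had a log2 fold change of 0.49 (SE 0.19, edgeR adjusted p = 0.0695). *STXBP4*, *STXBP5* (tomosyn) and *STXBP6* (amisyn) had 0.18, −0.25 and −0.17 with SEs of 0.12 to 0.16. Exons shared on the same strand with other genes cover 30.4% of the bases of *STXBP2* and 26.6% of those of *STXBP4*, and these levels are uncertain.

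The wider fusion pathway was described with 81 partner genes listed by role (synaptotagmins, exocyst, priming factors, secretory Rabs, tethers and others). Of the 63 tested, 2 were called lower and 5 higher (3.17% and 7.94%, against 5.54% and 2.9% of all tested genes), with a median log2 fold change of 0.05. By the adjusted p-value alone, 6 were lower and 6 higher (9.52% each, against 10.9% and 7.96%). *SYT1*, a calcium sensor of exocytosis, had 43.4 and 43.1 CPM in miControl and 21.5 and 22.4 CPM in miR-6133-5p libraries (−0.98, SE 0.10, edgeR adjusted p = 1.5e-05). *SYT11*, a synaptotagmin that does not bind calcium, had 36.3 and 36.2 CPM against 75.3 and 78.1 CPM (1.08, SE 0.10, edgeR adjusted p = 4.39e-06). The groups of these 2 genes did not overlap, and replicates lay close together.

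The other partner genes called were expressed at lower levels. *SYT7*, a calcium sensor of slower exocytosis, was called lower (−0.98, SE 0.22, edgeR adjusted p = 0.00397). Those called higher were *RAB3D* and *RAB27B*, Rab GTPases of secretory vesicles (1.26 and 1.14), *UNC13D* (Munc13-4), a priming factor (1.43), and *STXBP5L* (tomosyn 2), which binds syntaxins (1.46). Their SEs were 0.17 to 0.34. Counts in the miControl libraries were low for *UNC13D* (22 and 35) and *STXBP5L* (33 and 29), at 0.447 to 0.671 CPM. Of the tethers, 3 genes picked out after their values were seen were lower by the adjusted p-value alone. *EXOC2* was among 9 genes of the exocyst (−0.75, SE 0.10). *TGFBRAP1* and *VPS39* were among 7 genes of the endosomal HOPS and CORVET complexes (−0.50 and −0.48, SE 0.10 each). By contrast, 0 of 8 COG, 0 of 4 GARP and 0 of 5 Sec1/Munc18 genes outside the family passed it. Outside the tethers, *CADPS2* of the priming factors (−0.71, SE 0.15) and *SYTL2* of the synaptotagmin-like genes (0.44, SE 0.11) passed the adjusted p-value but not the fold threshold. The 4 complexins had too few counts to be tested. The calls among partner genes rested partly on single libraries: without miControl replicate 1, 1 was called lower (*SYT1*) and 1 higher (*SYT11*), and without miControl replicate 2, 1 lower (*SYT1*) and 2 higher (*SYT11* and *RAB3D*). With glmTreat 0 partner genes were called.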

How the data were processed

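LX-2 RNA was sequenced as TruSeq Stranded libraries, 2 per group, grouped by the transfection named in the labels. The authors deposited whole-number counts per Ensembl gene, not normalized. The submitters' processing notes name STAR 2.5.3a, featureCounts, Subread 1.6.4 and GRCh37, while the annotation release and strand setting are not given in the sources used here. Counts summed to 1.68 to 1.70 per uniquely mapped read pair, and no interval was drawn from counts alone, which would cover counting error only. Files of single libraries held the same counts as the matrix (4 of 4).

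From these counts, genes were filtered with filterByExpr, scaled by TMM and fitted with glmQLFit and glmQLFTest in edgeR 4.0.16 (R 4.3.3), with Benjamini–Hochberg adjustment over 18252 genes and the thresholds of the study's methods (adjusted p below 0.01, log2 fold change beyond 0.8). Standard errors were derived from the F statistic. Common biological variation was 0.105. With 2 libraries per group an exact permutation test cannot go below p = 0.333, and none was made.

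The members and lists were chosen with earlier results of these data known. Results for some single members are not reported here, and counts over the members leave them out. Every other member was accounted for. *STX2* and members with an adjusted p below 0.01 were given by library, other members by fold change, and partner genes where called. The values by library of *STX1A*, *STX3*, *STX4* and *VAMP2* were added after the data were seen, and so was the choice of the 7-base sequence, as the mature miRNA was not used here. Positions, exons and UTRs were read from GENCODE v44 lifted to GRCh37, and the authors may have counted over another annotation. In all, 55665 of 63677 gene IDs matched a symbol. The longest annotated 3′-UTR of each gene was searched on the transcribed strand. Alternatives were DESeq2 1.42.0, RLE, library totals, other count filters, a replicate block, glmTreat, an adjusted p of 0.05, other UTRs, lengths and sites, and leaving out each library. Scripts were tested on simulated data. Sequences and plots used Python 3.11.15, numpy 2.4.6, pandas 2.3.3 and matplotlib 3.10.9.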

Additional observations from a re-analysis of the deposited data

How the results depend on the processing

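With 2 libraries per group, small differences were not detectable, and each fit without a library assumed that the lone sample of its group varied like the others. RLE, DESeq2, dropping the count filter, asking for 10 or more counts per library and an adjusted p of 0.05 kept each count of called members and partner genes within 1.5 times its value. Of the counts of members by the adjusted p-value alone, the same settings moved 1, to 9 higher in place of 5 at an adjusted p of 0.05. The cause of the changes below was not tested, apart from the stricter hypothesis of glmTreat and the longer match of the 8-base site, which follow from how they were built.

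With library totals alone, the median over tested genes moved to 0.19 from 0.03 (log2). Partner genes called lower numbered 1, and tested genes called higher 977 in place of 529, with 709 in place of 1011 called lower. On that scale the sign turned for *NAPG* (0.15), *SNAP29* (0.021), *STX12* (0.040), *STX17* (0.13), *STX7* (0.14), *STX8* (0.13) and *VAMP4* (0.090), which had not passed the test, and *STX6* (0.89) was called higher. By the adjusted p-value alone, library totals gave 11 members higher in place of 5 and 6 lower in place of 8, and 1 Qb-SNARE lower in place of 3. With glmTreat against 0.8, 1 member was called higher, 0 partner genes were called lower and 0 higher, and 326 tested genes were lower and 80 higher. The 8-base site was in 4 members in place of 11, and the match was in any annotated 3′-UTR of 12. By the longest coding transcript, *STX2* in miControl had 55.6 CPM per kilobase in place of 41.1.

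With each library left out in turn, members called higher numbered 1 to 2 (1 without miControl replicate 1, where *VAMP1* was at 0.80), partner genes called lower 1 to 2 and higher 1 to 5, and tested genes called higher 293 to 587 and lower 770 to 1249. By the adjusted p-value alone, members numbered 1 to 9 lower and 1 to 8 higher, and Qb-SNAREs 0 to 3 lower (0 without either miControl replicate). The lowest counts of members, partner genes and tested genes called higher came without miControl replicate 1. Signs turned for members that had not passed the test, with ranges of −0.063 to 0.0092 for *NAPG*, −0.19 to 0.075 for *STX17*, −0.086 to 0.092 for *STX18*, −0.16 to 0.055 for *STX8*, −0.029 to 0.39 for *STXBP4*, −0.18 to 0.0052 for *VAMP4* and −0.12 to 0.21 for *VAMP5*.

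The labels do not say what a replicate number marks. Deviations of same-numbered libraries had a correlation of 0.049 over genes. This value cannot show whether same-numbered libraries shared a culture or a day, because counting noise of single genes also lowers it. A replicate block left 1 member called lower and 2 higher, 2 partner genes lower and 5 higher, and 1130 tested genes lower and 642 higher, and changed no other call of a member. By the adjusted p-value alone it gave 8 members lower and 6 higher.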
